A study of Mus musculus with 12 samples.

Results

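Stretches of the genome that carried peaks of both H3K27ac and H3K27me3 were described in the distal forelimb bud of wild-type mouse embryos at E11.5. Peaks of both lists on the 19 autosomes were intersected, and peaks that shared 1 bp or more were joined into regions. This gave 45959 regions in all, of which 4030 (8.77%) were doubly marked, 26785 held only H3K27ac (acetyl-only) and 15144 only H3K27me3 (methyl-only). The series consists of 12 ChIP-seq libraries (sequenced DNA recovered with an antibody from cross-linked chromatin) of mouse forelimb buds, 7 of them immunoprecipitated and 5 input. The wild-type libraries used here came from a mixed C57BL/6 and CD1 background and were made for H3K27ac, H3K27me3, HOXA13 and HOXD13, the last 2 with in-house antibodies and HOXA13 with an additional cross-linker, DSG. For comparison there were H3K27ac and H3K27me3 libraries of E11.5 Hoxa13-/-;Hoxd13-/- embryos of the same mixed background (the double mutant), and an H3K27me3 library of E10.5 forelimb buds of CD1 embryos, made with another supplier's antibody. The mutant Hoxa13 allele carries a neomycin cassette in the coding region and the mutant Hoxd13 allele a lacZ reporter in the first exon. The titles and the design text name the distal forelimb as the E11.5 tissue, whereas the extraction protocol speaks of "ZAP cells" for it. Marker genes of the tissue were not checked, since no annotation of the peaks' genome build, mm9, was used. Whether embryos were pooled is not stated. Every profile is 1 library, so no value below has a replicate check. Intervals are Wilson 95% intervals for shares and exact Poisson intervals for densities. They cover only the counting of peaks, which are not independent replicates.

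Acetyl groups and methyl groups compete for the same residue, lysine 27 of histone H3. Acetylation by p300 and CBP marks active promoters and enhancers, and trimethylation by Polycomb repressive complex 2 marks silenced developmental genes, often over broad domains. A single histone tail cannot carry both modifications, so overlapping peaks from a whole tissue may come from different cells, different alleles, or different histones of a nucleosome or of its neighbours. These possibilities cannot be told apart in these libraries. In the limb bud, genes that pattern the limb are active in some cells and held silent by Polycomb in others. HOXA13 and HOXD13, together called HOX13 here, are the homeodomain factors of the prospective digits.

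Seen from the lists, 4435 of 31220 autosomal H3K27ac peaks, or 14.2% (13.8 to 14.6%), overlapped H3K27me3. In the other direction 4480 of 19624 H3K27me3 peaks, or 22.8% (22.3 to 23.4%), overlapped H3K27ac. The length under both marks was 5.74 Mb. That is 9.82% of the 58.5 Mb covered by H3K27ac and 7.74% of the 74.3 Mb covered by H3K27me3. H3K27me3 covered 3.08% of the span between the first and the last peak of the autosomes. No single autosome carried the overlap: the share of H3K27ac peaks ran from 12.3% on chromosome 16 to 18.5% on chromosome 19, and the share of H3K27me3 peaks from 18.9% on chromosome 5 to 30.2% on chromosome 10. Most doubly marked regions were small and simple. In 3342 of them (82.9%) 1 peak of each mark met, and the median length under both marks was 1055 bp. Another 359 regions held 1 H3K27ac and 2 H3K27me3 peaks, and 211 held 2 H3K27ac peaks and 1 H3K27me3 peak. Regions with 3 or more H3K27ac peaks numbered 55 (1.36%). A small number of long regions stood beside these. The longest 10 held 5.66% of all sequence under both marks, and the longest 403 held 33.8%.

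The longest region under both marks was on chromosome 6 at 52141822 to 52231497. H3K27ac covered 85.1% of its 89676 bp and H3K27me3 99.1%, so that 75560 bp lay under both. It held 7 H3K27ac peaks, the widest 54.3 kb, and 21 HOX13 sites, a site being the joined peaks of HOXA13 and HOXD13. The second longest, on chromosome 2 at 74479846 to 74605456, was a single H3K27me3 peak with 5 H3K27ac peaks inside it. In that region 66061 bp lay under both marks, and 23 HOX13 sites were called. Hoxa13 is on chromosome 6 and Hoxd13 on chromosome 2 in the RefSeq gene table. That these 2 stretches hold the HoxA and HoxD gene clusters is general knowledge of the mm9 genome and was not checked against an annotation. These clusters encode the homeodomain factors that set position along the limb, and the genes at their 5′ ends act in the digits. The third longest, on chromosome 8 at 59786568 to 59836337, had 38647 bp under both marks, 6 H3K27ac peaks and 8 HOX13 sites.

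**Figure D1:**
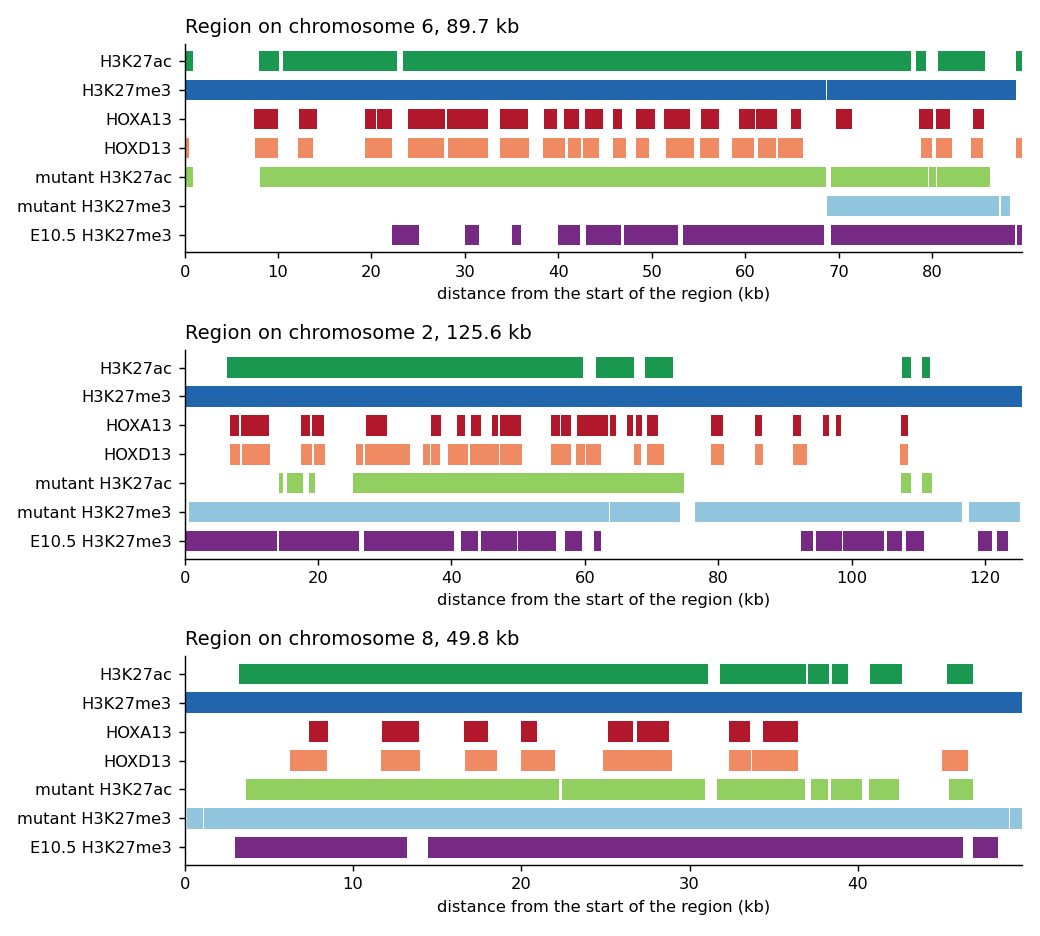
Peaks in the 3 doubly marked regions with the longest sequence under both marks, by distance from the start of the region in kb. Each bar is a deposited peak, clipped to the region. In the chromosome 6 region double-mutant H3K27me3 is called only over the right-hand part, and in the other 2 regions over nearly all of the length.

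The other 7 of the longest 10 lay on 6 chromosomes. On chromosome 14, at 122858776 to 122893771, 28184 bp were under both marks. On chromosome 3, at 99035235 to 99071581, the length was 23803 bp. The chromosome 2 region at 33480150 to 33505104 had 20788 bp and the chromosome 5 region at 120276247 to 120298321 had 20009 bp. On chromosome 1, at 19192210 to 19235646, it was 18572 bp, and on chromosome 7, at 77463062 to 77519289, it was 16919 bp. The tenth, on chromosome 1 at 140727239 to 140747810, had 16823 bp. HOX13 sites in these 7 regions numbered from 1 (chromosome 3) to 9 (chromosome 7 and the first on chromosome 1). H3K27me3 covered between 90.3% and 100% of each, and H3K27ac between 39.8% and 95.8%, so it was mainly the acetylated part that varied.

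HOX13 sites were most numerous in the chromosome 2 and chromosome 6 regions above, followed by a region on chromosome 15 with 19 sites. The chromosome 15 region, at 102725117 to 102906289, was a single H3K27me3 peak of 181173 bp, the widest of its list, and by the same general knowledge holds the HoxC cluster (Hoxc13 is on chromosome 15 in the RefSeq table). For its length it carried fewer HOX13 sites than the other 2, which had 23 in 125611 bp (chromosome 2) and 21 in 89676 bp (chromosome 6). It also had little acetylation. Under both marks lay 7303 bp or 4.03% of it, against 52.6% of the chromosome 2 region and 84.3% of the chromosome 6 region. In the double mutant, H3K27ac covered 16.5% of the chromosome 15 stretch. In the chromosome 2 stretch it covered 44.9% in the double mutant.

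The chromosome 6 region was the exception among the longest 10 in its H3K27me3. Its first H3K27me3 peak, from 52141834 to 52210460, was 68.6 kb wide but had a score of only 486, while the second, from 52210572 to 52230844, had the tied score of 3100. Double-mutant H3K27me3 began at 52210562 and covered 21.7% of the region, and double-mutant H3K27ac covered 87.0%. E10.5 H3K27me3 covered 58.5%, in 9 peaks. In the other 9 of the longest regions double-mutant H3K27me3 covered between 74.8% and 99.6%. The mutant alleles themselves lie in the HoxA and HoxD clusters, so an effect of the inserted cassettes on chromatin there cannot be told apart from the absence of the proteins.

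Overlap took 3 forms, counted over the 4885 overlapping pairs of peaks. In 2693 pairs, or 55.1% (53.7 to 56.5%), each peak extended past the other, which is called edge contact here. In 1972 pairs, or 40.4% (39.0 to 41.8%), the H3K27ac peak lay wholly inside the H3K27me3 peak, and in 220 pairs, or 4.50% (3.96 to 5.12%), the H3K27me3 peak lay inside the H3K27ac peak. Edge contacts were not grazing touches. Their overlap had a median of 736 bp (quartiles 459 and 1006 bp) and took up a median of 40.3% of the H3K27ac peak and 33.1% of the H3K27me3 peak. The most common overlap was 700 to 800 bp, with 290 pairs, against 141 pairs with 100 bp or less. Close to the 1 bp limit, the 3 smallest overlaps were 1, 2 and 3 bp, and the 3 smallest gaps of acetyl-only peaks were 0, 1 and 5 bp. A gap under 100 bp was found at 86 acetyl-only peaks and a gap under 1000 bp at 639 (2.39%), while 85.2% lay 10 kb or more from the nearest H3K27me3 peak.

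Nested H3K27ac peaks were short peaks in long domains. They had a median width of 1204.5 bp and lay in H3K27me3 peaks with a median of 5717.5 bp. They lay more often near the middle of the domain than near its ends. When the room that each peak had within its domain was divided into 5 equal bins from the middle outward, 34.0% of nested peaks fell in the middle bin and 12.2% in the outermost, where an even spread gives 20% per bin. The median distance to the nearer end of the domain was 1359.5 bp, and 39.5% ended within 1000 bp of an end. The share that an even spread would give within 1000 bp was not computed. Among the 2253 H3K27ac peaks that made only edge contacts, 1878 touched 1 H3K27me3 peak. The other 375 (16.6%) touched a separate H3K27me3 peak on each side and thus filled a gap in H3K27me3, with a median of 458 bp (quartiles 193.5 and 860.5 bp).

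**Figure D2:**
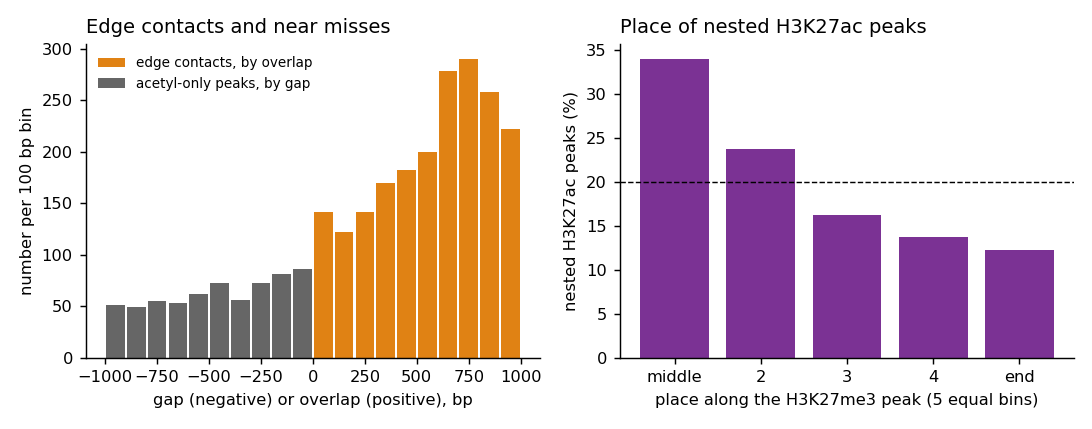
Left, number of edge contacts per 100 bp of overlap (right of 0) and of acetyl-only H3K27ac peaks per 100 bp of gap to the nearest H3K27me3 peak (left of 0), within 1000 bp. Right, percent of nested H3K27ac peaks in 5 equal bins from the middle to the end of the room they have within the H3K27me3 peak; the dashed line is the 20% of an even spread.

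Doubly marked H3K27ac peaks as a whole resembled acetyl-only peaks in width and score. The median width was 1518 bp against 1644 bp. The score is the peak caller's value for each peak and was turned into a percentile within its list. The median percentile was 51.4 for doubly marked and 49.7 for acetyl-only peaks. This near-equality joined 2 different groups. Nested H3K27ac peaks had a median percentile of 35.4 and edge-contact peaks of 61.8, with median widths of 1204.5 and 1791 bp. The 210 H3K27ac peaks that held a whole H3K27me3 peak were the widest, at 3786.5 bp, with a median percentile of 92.4. Form and width are linked by construction, since a narrow peak fits inside a domain more easily. Across quintiles of width, the nested share of H3K27ac peaks was 10.6% in the lowest and 2.42% in the highest, and the edge-contact share 4.23% and 8.196%. The doubly marked share of H3K27ac peaks had its highest value in the middle of the score range, with 11.9% (11.1 to 12.7%) in the lowest quintile, 17.0% (16.1 to 18.0%) in the third and 12.0% (11.2 to 12.9%) in the highest. It was highest among narrow peaks of middle score: 26.7% (24.4 to 29.1%) in the second quintile of width and the third of score.

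H3K27me3 peaks differed more. Doubly marked ones had a median width of 2998.5 bp against 2007 bp for methyl-only peaks, and a median score percentile of 67.3 against 44.1. The share with H3K27ac went from 9.35% (8.48 to 10.3%) in the lowest quintile of width to 30.9% (29.5 to 32.4%) in the highest. Wide peaks meet another list more often wherever they lie, and how much of the rise this accounts for was not tested. Within the third quintile of width, from 1772 to 2837 bp, the share still went from 11.2% (9.12 to 13.7%) in the second quintile of score to 47.2% (43.8 to 50.6%) in the fourth. Among peaks of high score, however, the wider ones had the lower share. In the fourth quintile of score it was 47.2% in the third quintile of width, 31.0% in the fourth and 22.8% in the highest. In the lowest quintile of score it was 8.70% and 10.7% in the lowest and the second quintile of width. The H3K27me3 peaks with H3K27ac inside them had the highest scores of the 3 forms, with a median width of 5398 bp and 61.7% at the tied score of 3100, against 19.1% of methyl-only peaks at that score. Across the 4885 pairs, the scores of the 2 peaks had a Spearman rho of -0.238. Within nested pairs rho was 0.041 and within edge contacts 0.0045, and over the 220 pairs with H3K27me3 inside H3K27ac it was 0.367. These are descriptions across pairs, some of which share a peak.

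**Figure D3:**
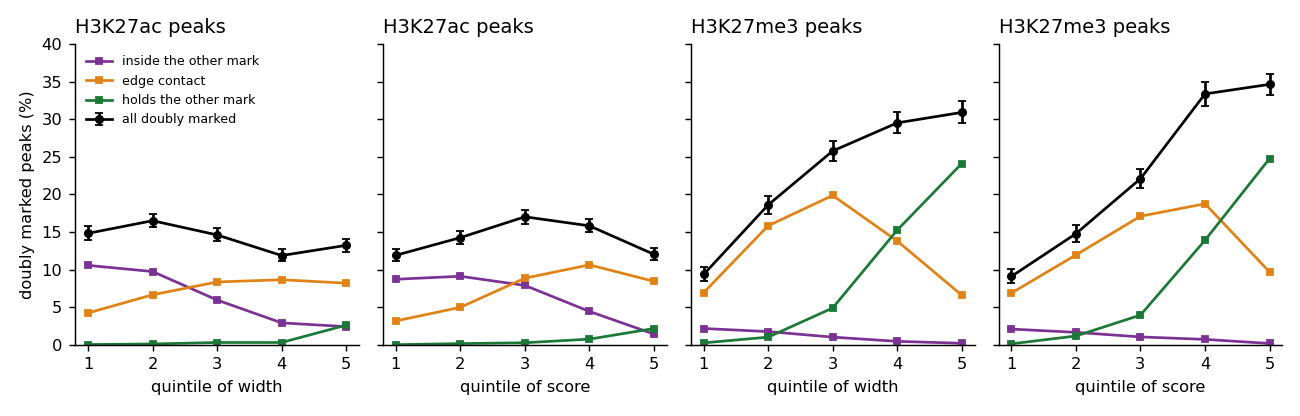
Percent of peaks that are doubly marked, by quintile of width or of score within the list, for H3K27ac (left pair) and H3K27me3 (right pair); bars are Wilson 95% intervals and coloured lines split the share by geometry. For H3K27ac the total stays between 11.9% and 17.0% while nested peaks give way to edge contacts, and for H3K27me3 it rises from 9.10% to 34.6% with score.

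Regions by their highest scores show the same forms. Many peaks tie at 3100, the widest H3K27ac peak among them, while some narrower peaks score higher, so this order is not one of strength. The nested H3K27ac peak with the highest score, 3233, was on chromosome 6 at 144728968 to 144731777, inside an H3K27me3 peak of 4918 bp. Another, on chromosome 11 at 18917658 to 18920803 (score 3194), lay in one of 27908 bp, and a further one, on chromosome 17 at 71658148 to 71661151, in one of 4532 bp. The remaining 2 of the 5 lay in the chromosome 2 region of the HoxD cluster, and 1 of them, at 74486156 to 74539552, was 53397 bp wide with 13 HOX13 sites. It is the widest of 54 nested peaks tied at 3100. All 5 nested peaks overlapped a HOX13 peak. Of the 5 edge contacts with the highest H3K27ac scores, 2 belonged to 1 H3K27ac peak on chromosome 16 at 78300904 to 78303208, which had H3K27me3 peaks scoring 147 and 218 at its ends. The others were on chromosome 7 at 72514837 to 72517051, on chromosome 17 at 84260335 to 84262554 and on chromosome 18 at 45717086 to 45719308. Only the chromosome 18 peak overlapped a HOX13 peak. Of H3K27me3 peaks inside H3K27ac, 8 tied at the score of 3100. The widest 5 of these were between 6144 and 19152 bp wide, the first on chromosome 5 at 120276249 to 120295400, and each overlapped HOX13. For comparison, the 3 acetyl-only peaks with the highest scores were 2130 to 2330 bp wide, and 2 of them overlapped HOX13. The 3 highest methyl-only peaks were 3047 to 9081 bp wide, and none did. Over all autosomal peaks, HOX13 overlapped 38.2% of H3K27ac and 16.4% of H3K27me3 peaks. The peaks named here are too few to compare the forms in HOX13 overlap.

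HOX13 binding was not used to form the classes. HOX13 peaks overlapped 1372 of the 4435 doubly marked H3K27ac peaks, or 30.9% (29.6 to 32.3%), and 10556 acetyl-only peaks, or 39.4% (38.8 to 40%). Over all autosomal H3K27ac peaks the share was 38.2%. Peaks of both factors were found at 20.5% (19.4 to 21.8%) of doubly marked and 27.4% (26.8 to 27.9%) of acetyl-only peaks, and at 26.4% of all. Among the forms, the share was 23.6% (21.8 to 25.5%) for nested peaks, 34.9% (32.9 to 36.9%) for edge contacts and 57.6% (50.9 to 64.1%) for H3K27ac peaks that held an H3K27me3 peak. Edge-contact peaks that filled a gap between 2 H3K27me3 peaks had 40.8% (35.9 to 45.8%). On the H3K27me3 side the order was the opposite. HOX13 peaks overlapped 1342 doubly marked H3K27me3 peaks, or 30.0% (28.6 to 31.3%), and 1878 methyl-only peaks, or 12.4% (11.9 to 12.9%), against 16.4% of all autosomal H3K27me3 peaks. This gap was present in every quintile of width, from 21.5% against 4.78% in the lowest to 42.5% against 25.7% in the highest. For H3K27ac the order depended on width. Doubly marked peaks had the lower share in the 4 lower quintiles, with 18.5% against 30.3% in the lowest, and 61.5% (58.1 to 64.8%) against 58.5% (57.2 to 59.8%) in the highest, where the intervals overlap. The order of the forms depended on width too. Nested peaks had 14.4% (11.9 to 17.3%) and edge contacts 28.8% (23.7 to 34.5%) in the lowest quintile of width, 27.15% and 27.2% in the third, and 69.5% (61.8 to 76.3%) and 57.2% (52.9 to 61.4%) in the highest.

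Densities give HOX13 sites per Mb of sequence, with each site counted once at its centre. Sequence under both marks held 785 sites in 5.74 Mb, or 137 per Mb (127 to 147). Acetyl-only peaks held 10194 sites, or 204 per Mb (200 to 208), and the parts of doubly marked peaks that lay under H3K27ac alone held 613 sites, or 215.5 per Mb (199 to 233). Under H3K27me3 alone there were 28.4 per Mb (25.8 to 31.2) in doubly marked peaks and 22.3 per Mb (21.1 to 23.6) in methyl-only peaks. Outside both marks the density was 8.80 per Mb. Sequence under both marks thus lay between the acetylated and the methylated parts. Both acetyl-only peaks and the H3K27ac-alone parts had a higher density than sequence under both marks on all 19 autosomes, and neither kind of H3K27me3-alone sequence did on any. Within edge-contact H3K27ac peaks, the part under both marks had 125 sites per Mb (111 to 141) and the part under H3K27ac alone 217 (199 to 237). In these peaks the part under both marks always lies at an end of the H3K27ac peak. The second mark and the place within the peak therefore cannot be told apart here. Sites of both factors made up 63.7% (60.3 to 67.0%) of sites under both marks, 68.2% (67.3 to 69.1%) in acetyl-only peaks and 51.6% (48.7 to 54.4%) in methyl-only peaks. Over all 33296 autosomal sites the share was 58.1%, and outside both marks it was 53%.

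**Figure D4:**
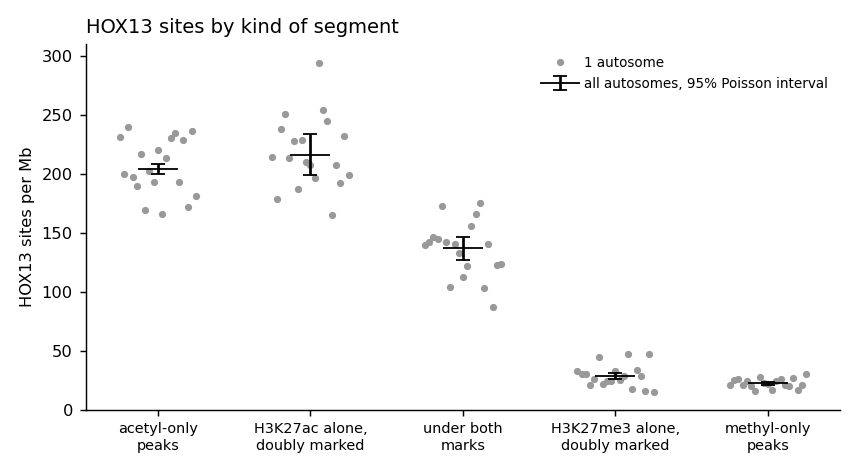
HOX13 site centres per Mb by kind of segment. Horizontal marks with bars are all autosomes together with the exact 95% Poisson interval, and grey points are single autosomes, which range from 87.3 to 175 per Mb under both marks and from 166 to 240 in acetyl-only peaks.

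HOX13 overlap of the forms took a different order at low and at high H3K27ac scores. Nested peaks in the lowest quintile of score overlapped HOX13 in 16.0% of cases (13.2 to 19.3%), against 32.6% (31.4 to 33.9%) of acetyl-only peaks. In the highest quintile the order was turned, with 69.7% (59.5 to 78.2%) of 89 nested peaks and 40.6% (39.4 to 41.9%) of acetyl-only peaks. The other forms were also above acetyl-only peaks there, with 46.9% (42.65 to 51.1%) of edge contacts and 70.4% (62.2 to 77.4%) of H3K27ac peaks that held an H3K27me3 peak. Doubly marked peaks together had 53.8% (50.2 to 57.3%). Nested peaks of the highest quintile were wider, with a median of 3471 bp against 2684 bp. In sites per Mb, nested peaks went from 105 (78.5 to 139) in the lowest quintile to 203 (167 to 245) in the highest. Acetyl-only peaks went from 253 (240 to 267) to 150 (144 to 156). Median widths in the lowest quintile were 882 bp for nested and 918 bp for acetyl-only peaks, so dividing by length does not remove width. Acetyl-only peaks held 1298 sites in 5500 peaks in the lowest quintile and 2534 in 5494 in the highest. Their lower density there thus came with more sites in longer peaks. Without the 10 longest regions, 75 nested peaks remained in the highest quintile, 66.7% of them with HOX13, at 211 sites per Mb (165 to 267). Edge contacts stayed close to acetyl-only peaks in the lowest quintile, with 262 per Mb (193 to 349), and had 126 (108 to 146) in the fourth and 173 (154 to 194) in the highest. The difference between these trends was not tested, since there is 1 library of each mark.

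**Figure D5:**
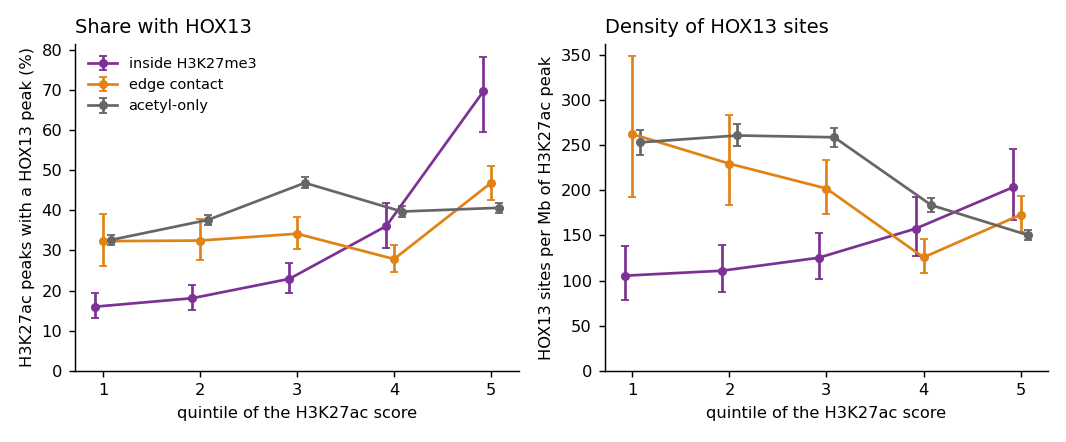
Percent of H3K27ac peaks that overlap a HOX13 peak (left, Wilson 95% intervals) and HOX13 site centres per Mb of H3K27ac peak (right, exact Poisson 95% intervals), by quintile of the H3K27ac score. Nested peaks rise from 16.0% to 69.7% and from 105 to 203 per Mb. Acetyl-only peaks go from 32.6% to 40.6%, with 46.9% in the third quintile, but fall from 253 to 150 per Mb. Their median width goes from 918 to 2684 bp, so density is not free of width.

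The same places were then looked up in the double mutant. Of doubly marked H3K27ac peaks, 93.1% (92.4 to 93.9%) overlapped a double-mutant H3K27ac peak, against 83.5% (83.1 to 84.0%) of acetyl-only peaks and 84.9% of all. The gap was widest among peaks of low score, with 76.6% (73.4 to 79.5%) against 55.5% (54.2 to 56.8%) in the lowest quintile and 96.3% (95.02 to 97.3%) against 89.9% (89.1 to 90.7%) in the third. In the highest quintile every one of 751 doubly marked peaks was matched, as were 5492 of 5494 acetyl-only peaks. HOX13 overlap went with absence in both classes. Among doubly marked peaks, 11.3% (9.73 to 13.1%) of HOX13-bound and 4.86% (4.16 to 5.69%) of unbound peaks had no double-mutant H3K27ac. Among acetyl-only peaks these shares were 22.6% (21.8 to 23.4%) and 12.5% (11.95 to 12.97%). Bound and unbound peaks were not matched on score or width. The double-mutant H3K27ac list is longer, at 37433 autosomal peaks, and depth is unknown, so presence in both lists is not a measure of level.

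Most doubly marked H3K27ac peaks met both marks again in the double mutant: 3332 or 75.1% (73.8 to 76.4%) overlapped both, 18.0% H3K27ac alone, 5.39% H3K27me3 alone and 1.47% neither. Over all autosomal H3K27ac peaks these shares were 11.1%, 73.8%, 0.919% and 14.2%. Nested peaks met both in 87.3% of cases (85.8 to 88.7%) and edge contacts in 65.9% (63.9 to 67.8%). Where edge contacts met a single mark in the double mutant it was mainly H3K27ac, at 28.1% (26.3 to 30.0%) against 3.77% (3.06 to 4.64%) with H3K27me3 alone. For nested peaks the corresponding shares were 4.36% (3.54 to 5.36%) and 7.76% (6.66 to 9.02%). The forms were not matched on score or width. H3K27me3 peaks that held an H3K27ac peak had a median score percentile of 88.3, and those in edge contact 55.6. Overlap of doubly marked H3K27me3 peaks with double-mutant H3K27me3 went from 24.1% in the lowest quintile of score to 99.9% in the highest. Edge contacts also meet H3K27me3 only at an end. How much of the gap these account for was not tested.

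Of doubly marked H3K27me3 peaks, 81.9% (80.7 to 83%) overlapped double-mutant H3K27me3, against 65.95% (65.2 to 66.7%) of methyl-only peaks and 69.6% of all. The order depended on the score. In the lowest quintile the shares were 24.1% (19.9 to 28.8%) and 28.6% (27.2 to 30.1%), and in the fourth 96.4% (95.2 to 97.3%) and 92.2% (90.99 to 93.2%). Methyl-only H3K27me3 peaks overlapped H3K27ac in the double mutant in 1457 of 15144 cases, or 9.62% (9.16 to 10.1%), doubly marked ones in 93.3% (92.5 to 94%), and all autosomal H3K27me3 peaks in 28.7%. E10.5 H3K27me3 overlapped 68.5% (67.2 to 69.9%) of doubly marked and 44.2% (43.4 to 45.0%) of methyl-only H3K27me3 peaks, and 49.8% of all. In the second quintile of score the shares were 34.8% (31.1 to 38.8%) and 22.4% (21.0 to 23.8%), in the third 50.5% (47.2 to 53.8%) and 36.5% (34.8 to 38.2%), and in the highest 97.1% (96.1 to 97.8%) and 95.6% (94.8 to 96.3%), where the intervals overlap. H3K27me3 peaks that held an H3K27ac peak had 87.9% (86.3 to 89.3%) and those in edge contact 58.9% (56.9 to 60.8%). These forms were not matched on score or width. Their median score percentiles were 88.3 and 55.6, in that order, and E10.5 overlap rose with score. How much of the gap between the forms goes with score was not tested. The E10.5 library also differs in strain, antibody and part of the limb, which cannot be told apart from stage.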

How the data were processed

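Each immunoprecipitated library has a deposited peak list with chromosome, start, end, name and score. Bowtie 0.12.7, MACS 1.4 and the build mm9 are named in the submitters' processing notes. The deposited score is read as -10 times the decimal logarithm of the caller's p-value, with a lowest value of 50 and many ties at 3100, and ranks peaks within 1 list only. The input set against wild-type H3K27me3 is not given in the sources used here. Read depth is unknown, and the input libraries were not analysed. Between 6 and 16 peaks per list end past chromosome 1 of GRCm38, the reference at hand, so no gene or sequence was read by position.

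Peaks were intersected in Python 3.11.15 with pandas 2.3.3, with functions tested on simulated data and checked against bedtools. Overlap meant 1 bp or more, autosomes only. HOXA13 and HOXD13 peaks were joined into 33296 sites. Quintiles of width and score were taken within each list. There are no tests over samples. Named regions follow fixed rules: the longest 10 under both marks, the 5 with most HOX13 sites, and the highest scores of each form and class, with ties ordered by overlap or width. Members, classes and rules were chosen with earlier results of these data known. Of the alternatives, leaving out the 10 longest regions was added after seeing the data.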

Additional observations from a re-analysis of the deposited data

Results flagged for a closer look

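The X chromosome, which the comparisons leave out, carried a far higher share of doubly marked H3K27ac peaks. Of 708 wild-type H3K27ac peaks on the X, 523 overlapped H3K27me3, or 73.9% (70.5 to 77.0%), where a count of 0 would allow 0.424%. The share on autosomes was 14.2%. Wild-type H3K27me3 had 9251 peaks on the X, covering 22.9 Mb, and 546 of them (5.90%, 5.44 to 6.40%) overlapped H3K27ac. Of all 28875 wild-type H3K27me3 peaks 19624 were autosomal, against 18973 of 19358 in the double mutant and 15077 of 17556 at E10.5. The H3K27me3 libraries thus differ widely outside the autosomes. The sex of the embryos is not in the labels.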

How the results depend on the processing

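Of 36 values under other settings whose reported value has an interval, 12 stayed within it and 24 moved out of it. Another 9, of lengths, width ratios and score percentiles, have no interval: 8 differed from the reported value at 3 digits and 1 changed sign. A score of 100 or more gave 9.39% of H3K27ac length shared, 59.0% edge contacts, and HOX13 differences between doubly and singly marked peaks of -6.90 points for H3K27ac and 11.0 for H3K27me3. Overlap of at least 50% of either peak gave shares of 10.85% (H3K27ac) and 16.3% (H3K27me3), 8.50% of length, 36.4% edge contacts and -10.3 points for H3K27ac. With it the ratio of median widths was 0.846 for H3K27ac and 1.73 for H3K27me3, and the difference in score percentile 26.3 for H3K27me3. For H3K27ac this difference changed sign, from 1.64 to -4.55. Counting peaks within 1000 bp as overlapping gave 16.25% and 26.6%, 45.8% edge contacts, and -6.63 and 15.8 points. Joining neighbouring peaks gave 25.9% of H3K27me3 peaks, 10.1% of length and 45.1% edge contacts. Lists shortened to the same number of peaks gave 15.0% and 16.2%, 9.61% of length, 65.6% edge contacts and -6.62 points. All chromosomes gave 15.5% and 17.4%, 11.1% of length, 52.9% edge contacts and 20.2 points for H3K27me3. Requiring both factors gave -6.83 and 11.48 points. Some shifts follow from the setting itself. Pairs within 1000 bp that do not overlap count among the pairs but cannot be edge contacts. The 50% rule keeps every pair in which 1 peak lies inside the other and can drop only edge contacts. Among H3K27ac peaks, edge contacts had higher score percentiles than nested peaks. The cause of the other shifts was not tested. HOX13 differences kept their sign in each of these settings. The HOX13 density ratio of sequence under both marks to acetyl-only peaks was 0.669, and 0.625 with sites of both factors and 0.646 without the 10 longest regions. Read depth is unknown. No paired analysis was possible because each group holds 1 library.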

Other observations

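H3K27ac peaks that just missed H3K27me3 were not intermediate in HOX13 overlap. The 639 acetyl-only peaks with a gap under 1000 bp overlapped a HOX13 peak in 44.6% of cases (40.8 to 48.5%), those with a gap of 10 kb or more in 40.2% (39.6 to 40.8%), and H3K27ac peaks in edge contact in 34.9% (32.9 to 36.9%). Peaks of both factors were at 34.9% (31.3 to 38.7%), 28.05% (27.5 to 28.6%) and 23.3% (21.6 to 25.1%) of these groups, in that order. The groups were not matched on width or score.

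Small gaps in the lists set where a region ends. The longest region, on chromosome 6, was preceded by another doubly marked region at 52098669 to 52141784, from which it was separated by 37 bp. That neighbour held 8 H3K27ac peaks, 9448 bp under both marks and 8 HOX13 sites in 43116 bp.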
